A study of Mus musculus with 6 samples.

Results

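The tumour necrosis factor (TNF) superfamily was read in CD45-negative lung cells of silica-treated and untreated mice. The genes were Tnf and every gene whose symbol is Tnfsf or Tnfrsf followed by a digit, with symbols taken from the RefSeq accession of each array probe. The array carried 31 such genes, of which 29 had a probe well above background on at least 2 of the 6 arrays, 10 of them ligands and 19 receptors, among 16440 genes that met the same condition. The brightest probe stood for a gene. Its level is the log2 signal minus the log2 signal at the array's 75th percentile, so that 1 unit is a 2-fold difference. The other 2 genes were Tnfsf4, the OX40 ligand gene, well above background on 1 array, and Tnfrsf8, the CD30 gene, on none. Of the 29, 25 were well above background on all 6 arrays. Tnfsf18, Tnfsf8, Tnfsf11 and Tnfrsf17 were not, and their fitted differences rest in part on readings not well above background. Tnfsf18 passed the filter through its silica arrays alone, so it had to differ. Counts describe measured genes and not the whole superfamily.

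Mice were 7 to 9 weeks old at the start. The 6 groups were Ccr2KO mice (B6.129S4-Ccr2tm1Ifc/J), which carry a disrupted gene for the monocyte chemokine receptor CCR2, untreated (day 0) or 28 and 40 days after silica was aspirated into the lung, and WT mice (C57BL/6J) at the same 3 times. Per the labels, CD45-negative cells were separated from digested lungs, and RNA of 3 biological replicates was pooled for a single array per group, so no group had a replicate. The p-values below come from limma fits over all genes with 2 residual degrees of freedom. They measure what day and genotype left unexplained, not the spread between animals.

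Ligands of this superfamily are trimeric proteins, mostly held in the membrane and partly shed, that cluster receptors on the target cell. Receptors with a death domain can start cell death or NF-κB signalling through TRADD, FADD and RIPK1, while the others recruit TRAF adaptors and feed the canonical or the NIK-dependent NF-κB pathway. Decoy receptors bind ligand and pass on no death signal. In lung, TNF and its receptors are known from inflammatory responses to silica and other particles, and the lymphotoxin and RANK ligand branch from the stroma of lymphoid tissue.

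The 2 ligand genes with promoters shown here, for the GITR ligand (Tnfsf18) and RANK ligand (Tnfsf11), were among the 3 members with the largest rise after silica. The 250 bases before the annotated start are given 5′ to 3′ on the gene's strand, from RefSeq on GRCm38.p6, at chr1:161494407-161494656 (plus strand) for Tnfsf18 and chr14:78308044-78308293 (minus strand) for Tnfsf11. Capitals mark matches to the TATA motif TATAAA on either strand.
Tnfsf18: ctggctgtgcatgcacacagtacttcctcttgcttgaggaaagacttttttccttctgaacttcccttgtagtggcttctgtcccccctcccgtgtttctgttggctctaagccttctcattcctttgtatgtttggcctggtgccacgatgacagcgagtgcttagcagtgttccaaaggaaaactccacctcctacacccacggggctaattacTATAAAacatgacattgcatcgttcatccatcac
Tnfsf11: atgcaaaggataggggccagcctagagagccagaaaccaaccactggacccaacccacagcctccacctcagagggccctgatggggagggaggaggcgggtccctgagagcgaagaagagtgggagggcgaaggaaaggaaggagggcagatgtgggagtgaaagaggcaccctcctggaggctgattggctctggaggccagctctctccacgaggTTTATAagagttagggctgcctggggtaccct
In Tnfsf18 the match lay on the gene's strand, 34 to 29 bases before the start. In Tnfsf11 it lay on the opposite strand, 32 to 27 bases before the start. Of 32851 promoters in the table, 12.4% held TATAAA on either strand within the same 250 bases. Neither window held, on either strand, the κB letters (GGG, any 3 bases, TTCC, in 4.65% of promoters), the AP-1 letters (TGA, any base, TCA, in 6.75%) or the STAT letters (TTC, any 3 bases, GAA, in 7.02%). Of the 29 members, 23 had a promoter in the table. The window of Tnfsf8, the third of these genes, lay inside its annotated gene and is not shown.

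All 6 arrays lay on 1 slide, and correlations between the genotypes over all genes were 0.987, 0.991 and 0.985 on days 0, 28 and 40. Ccr2 read −5.07, −1.51 and −3.64 in Ccr2KO cells (untreated, day 28, day 40) and 0.09, 1.38 and −1.70 in WT cells, lower in the knockout on each day. The CD45 gene Ptprc was still measured in these depleted preparations, at 0.45, 2.14 and −0.61 in Ccr2KO and 1.54, 2.62 and 0.29 in WT cells. All 12 pan-leukocyte markers were above background on every array, with a summed level (linear, 75th percentile signal = 1) of 53.0, 177.1 and 40.6 in Ccr2KO and 97.5, 234.6 and 53.1 in WT cells. This level was highest at day 28 and lowest at day 40 in both genotypes, so any member that leukocytes express was measured over a changing leukocyte content. In such bulk samples fewer cells of a type and less RNA per cell cannot be told apart.

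Silica was compared with no treatment by setting the mean of both times against the untreated arrays, over both genotypes. Of the 29 members 12 rose, 2 fell and 15 did not pass. Over all genes, 19.8% passed an adjusted p below 0.05, 10.5% rising and 9.28% falling. The median difference was 0.77 over the members and −0.01 over all genes. Among ligands 4 of 10 rose and 1 fell, and among receptors 8 of 19 rose and 1 fell. On each of the 4 silica arrays, 5 members were at least 2-fold higher than on the untreated array of the same genotype, Tnfsf18, Tnfsf8, Tnfsf11, Tnfrsf23 and Tnfrsf11b, against 3.38% of all genes. No member was 2-fold lower in all 4, against 1.65% of all genes. The plot of silica differences shows these values for every member.

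**Figure D1:**
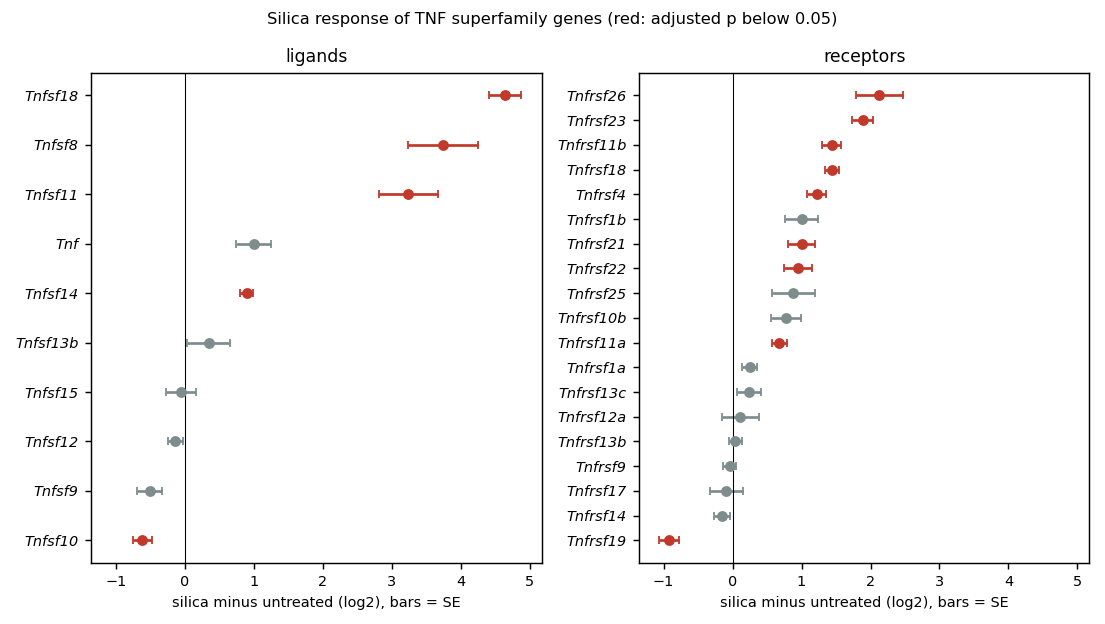
Log2 difference between silica (days 28 and 40) and untreated arrays for 10 ligand and 19 receptor genes, each as the limma estimate with its standard error (4 silica and 2 untreated arrays). Red points passed an adjusted p below 0.05. Tnfsf18, Tnfsf8 and Tnfsf11 lie furthest to the right, between 3.24 and 4.64, and Tnfsf10 and Tnfrsf19 are the called genes left of 0.

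Tnfsf18 encodes the GITR ligand, which costimulates T cells and is known from antigen-presenting and endothelial cells. It read −5.65, −1.07 and −0.05 in Ccr2KO cells (untreated, day 28, day 40) and −6.19, −2.41 and −1.58 in WT cells. Neither untreated array was well above background, all 4 silica arrays were, and both genotypes read higher at day 40 than at day 28. The rise was at least 24.9-fold, set against the probe's own untreated readings, which lay above the lowest signal called well above background on those arrays (bounds here use the higher of the pair). The fitted difference was 4.64 ± 0.24 (log2 ± SE, limma adjusted p = 0.00756) and is no independent support, given how the gene passed the filter. The bound was 33.9-fold in Ccr2KO and 18.3-fold in WT cells.

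Tnfsf8 encodes the ligand of CD30, a costimulatory receptor of activated lymphocytes. It read −3.74, −1.37 and −0.50 in Ccr2KO cells and −6.27, −1.53 and −1.64 in WT cells, and only the WT untreated array was not well above background. Every silica array lay above both untreated arrays. The rise was 3.74 ± 0.51 (limma adjusted p = 0.0186), and within WT it was at least 25.6-fold. Its receptor gene Tnfrsf8 was not well above background on any array, so the pair could not be compared.

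Tnfsf11 encodes RANK ligand, which drives osteoclast formation and lymph node development. It read −3.73, −1.20 and −1.40 in Ccr2KO cells and −5.46, −0.98 and −1.85 in WT cells, with the WT untreated array again not well above background. All silica arrays lay above both untreated arrays. The rise was 3.24 ± 0.43 (limma adjusted p = 0.0179), and within WT it was at least 16.6-fold. Tnfrsf11a, the gene of its receptor RANK, rose by a smaller amount, 0.68 ± 0.11 (adjusted p = 0.0257), reading 0.31, 0.87 and 0.89 in Ccr2KO and 0.19, 0.89 and 1.07 in WT cells. Tnfrsf11b, the gene of the soluble RANK ligand decoy osteoprotegerin, read −0.58, 0.63 and 0.86 in Ccr2KO and −0.76, 0.46 and 1.12 in WT cells. It rose by 1.44 ± 0.14 (adjusted p = 0.0109), without overlap between silica and untreated arrays. Ligand, receptor and decoy of this branch thus all passed, in the same direction and at both times. Of 10 genes of osteoclasts and their formation, 3 rose and 1 fell. The collagen-degrading protease gene Ctsk (2.90 ± 0.39), the fusion gene Dcstamp (1.58 ± 0.25) and the gelatinase gene Mmp9 (1.40 ± 0.19) rose, and the carbonic anhydrase gene Car2 fell (−0.62 ± 0.13). Dcstamp and Mmp9 were lower at day 40 than at day 28 (−2.52 ± 0.29 and −2.19 ± 0.22, limma adjusted p = 0.0353 and 0.0269). So were 11 of 12 pan-leukocyte markers, whose part in them was not tested. Ctsk is also expressed by fibroblasts, and the 7 activated fibroblast markers all rose. Of these markers, Lrrc15 passed the filter through its silica arrays alone, so it had to differ. The part of fibroblasts in the Ctsk difference was not tested.

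**Figure D2:**
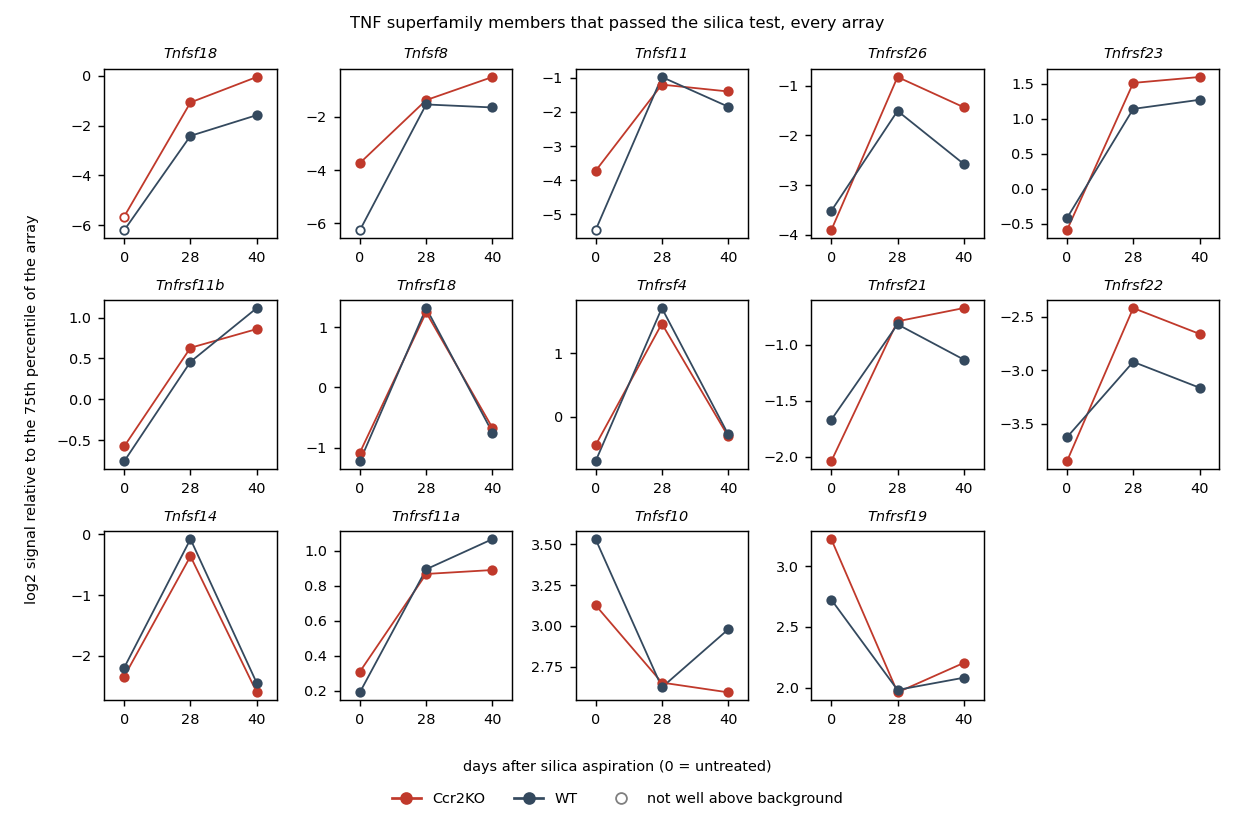
Log2 level (1 unit is a 2-fold difference) against days after silica (0 = untreated) for the 14 members that passed the silica test, in Ccr2KO (red) and WT cells (dark), 1 array per point and each panel on its own scale. Open points were not well above background. Tnfsf18, Tnfrsf11b and Tnfrsf23 read higher at day 40 than at day 28 in both genotypes, while Tnfrsf18, Tnfrsf4 and Tnfsf14 peaked at day 28.

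In the TRAIL branch the ligand gene fell and decoy receptor genes rose. Tnfsf10 encodes TRAIL, which can kill cells through its death receptor. It fell by 0.62 ± 0.14 (limma adjusted p = 0.0493), reading 3.13, 2.65 and 2.59 in Ccr2KO and 3.53, 2.62 and 2.98 in WT cells, with every silica array below both untreated arrays. With quantile normalization the Tnfsf10 difference was −0.65 ± 0.16 and did not pass (limma adjusted p = 0.0611). Tnfrsf10b, the mouse TRAIL death receptor gene, read 1.46, 1.52 and 2.18 in Ccr2KO and 0.99, 1.76 and 2.55 in WT cells, higher on all silica arrays, and did not pass (0.77 ± 0.21, adjusted p = 0.0756).

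The mouse decoy TRAIL receptor genes Tnfrsf23 and Tnfrsf22, which encode receptors without a death domain, both rose. Tnfrsf23 read −0.59, 1.51 and 1.60 in Ccr2KO and −0.42, 1.14 and 1.27 in WT cells, a rise of 1.88 ± 0.16 (adjusted p = 0.00903). Tnfrsf22 read −3.85, −2.42 and −2.66 in Ccr2KO and −3.63, −2.92 and −3.16 in WT cells, a rise of 0.95 ± 0.20 (adjusted p = 0.0436). Tnfrsf26, a related receptor gene, read −3.91, −0.82 and −1.43 in Ccr2KO and −3.52, −1.51 and −2.57 in WT cells, and rose by 2.13 ± 0.34 (adjusted p = 0.0255). These 3 genes stand next to each other on 1 chromosome in RefSeq, and in each of them silica and untreated arrays did not overlap. They are close relatives, and how far their probes tell them apart was not tested. A second Tnfrsf22 probe gave 1.23 and a second Tnfrsf23 probe, not above background on either untreated array, gave 1.41.

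The TWEAK ligand gene Tnfsf12 gave −0.14 ± 0.11 (limma adjusted p = 0.405). The gene of its receptor Fn14, Tnfrsf12a, which is known to be induced in injured tissue, gave 0.11 ± 0.27 (adjusted p = 0.791), with 3.78, 3.07 and 3.67 in Ccr2KO and 3.22, 3.66 and 4.03 in WT cells. In WT cells Tnfrsf12a was above untreated at both times and in Ccr2KO cells below it at both times, though the difference of the responses did not pass (−1.03 ± 0.49, unadjusted p = 0.105). Leaving out the WT untreated array or fitting the slide row turned its silica difference to −0.40 in each case.

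Tnf itself read −1.45, 1.04 and −0.96 in Ccr2KO cells and −0.28, 1.22 and −0.76 in WT cells. It was highest at day 28 in both genotypes, and at day 40 it was below untreated in WT cells. The silica difference did not pass (0.999 ± 0.25, limma adjusted p = 0.0655), and day 28 alone did (1.996 ± 0.29, adjusted p = 0.0245). Tnfrsf1b, the gene of the TNF receptor found on leukocytes and endothelium, was also highest at day 28, with 1.003 ± 0.24 after silica (adjusted p = 0.0571), and 1.36 ± 0.28 at day 28 (adjusted p = 0.0444). Tnfrsf1a, the widely expressed TNF receptor gene with a death domain, read 4.74, 4.85 and 5.20 in Ccr2KO and 4.79, 4.97 and 5.05 in WT cells. Its difference was 0.25 ± 0.11 (adjusted p = 0.176), and a second probe gave 0.60.

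Among receptors of other ligands, Tnfrsf21, the death receptor 6 gene, rose by 1.001 ± 0.20 (limma adjusted p = 0.038), reading −2.04, −0.79 and −0.67 in Ccr2KO and −1.67, −0.82 and −1.13 in WT cells. Tnfrsf19 encodes TROY, a receptor studied in epithelium and the nervous system. It fell by 0.92 ± 0.14 (adjusted p = 0.0245), reading 3.22, 1.96 and 2.21 in Ccr2KO and 2.73, 1.98 and 2.08 in WT cells, and a second probe gave −0.82. Of 6 measured type 1 alveolar markers, 5 fell as well, and of 8 type 2 markers 5 fell. Their part in the Tnfrsf19 difference was not tested. Eda, the ectodysplasin gene, a superfamily ligand under another symbol, also fell (−1.33 ± 0.12, adjusted p = 0.0103).

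Several members known from lymphocytes were highest at day 28, where the leukocyte markers were highest. Between the times after silica (day 40 minus day 28), 5 of the 29 members were lower at day 40 and 0 higher, against 2.52% and 0.201% of all genes. Day 28 read above day 40 in both genotypes in 12 members, against 20.2% of all genes, and day 40 above day 28 in 11, against 47.6%. The 5 that passed were Tnfrsf4 (OX40) and Tnfrsf18 (GITR), both costimulatory receptors of activated and regulatory T cells, Tnfsf14 (LIGHT), a ligand of HVEM and the lymphotoxin β receptor, and the B lineage receptors Tnfrsf13c (BAFF receptor) and Tnfrsf17 (BCMA).

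Tnfrsf4 read −0.44, 1.46 and −0.30 in Ccr2KO and −0.69, 1.71 and −0.27 in WT cells. Day 40 was lower than day 28 by a log2 difference of −1.87 ± 0.16 (limma adjusted p = 0.0181), and silica minus untreated was 1.22 ± 0.14 (adjusted p = 0.0139). Tnfrsf18 read −1.08, 1.24 and −0.67 in Ccr2KO and −1.22, 1.31 and −0.75 in WT cells, with −1.99 ± 0.12 between the times (adjusted p = 0.0147) and 1.44 ± 0.10 after silica (adjusted p = 0.00794). In both genes and both genotypes the day 40 array lay closer to untreated than to day 28. Tnfsf14 read −2.34, −0.36 and −2.60 in Ccr2KO and −2.19, −0.08 and −2.45 in WT cells. Its day 40 arrays lay below untreated, so its called silica rise (0.90 ± 0.10, adjusted p = 0.0124) came from day 28, and day 40 minus untreated was −0.26.

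Tnfrsf13c read −1.65, −0.08 and −3.06 in Ccr2KO and −1.37, 0.23 and −2.15 in WT cells, with −2.68 ± 0.20 between the times (limma adjusted p = 0.016). It was higher than untreated at day 28 (1.58 ± 0.20, adjusted p = 0.0188) and lower at day 40 (−1.10 ± 0.20, adjusted p = 0.0393). A dimmer Tnfrsf13c probe read −5.07, −3.60 and −4.94 in Ccr2KO and −5.24, −3.60 and −5.13 in WT cells. It was also highest at day 28 but not below untreated at day 40, where neither array was well above background. Tnfrsf17 read −4.44, −3.87 and −6.10 in Ccr2KO and −4.16, −2.70 and −4.89 in WT cells, not well above background on either day 40 array, and was at least 4.64-fold higher at day 28 than at day 40 (adjusted p = 0.0432). Tnfrsf13b, the gene of the third BAFF family receptor TACI, stayed between −1.81 and −1.36 on all arrays by its brighter probe and passed no test. A dimmer Tnfrsf13b probe, not used in the tests, was at least 2.16-fold higher at day 28 than at day 40. That probe was not well above background on either day 40 array. The BAFF gene itself, Tnfsf13b, read 2.73, 2.42 and 2.56 in Ccr2KO and 1.71, 2.78 and 2.50 in WT cells, with 0.34 ± 0.31 after silica (adjusted p = 0.463).

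The T and B cell marker lists were highest at day 28, as these members were. Of 11 measured T cell markers, 9 were lower at day 40 than at day 28 and 7 rose after silica, among them Foxp3 (1.30 ± 0.11) and Icos (1.17 ± 0.19). The summed T cell level was 18.2, 40.9 and 16.9 in Ccr2KO and 18.1, 39.9 and 20.1 in WT cells. Of 9 B cell markers, 6 were lower at day 40 and 1 rose after silica. Their summed level was 9.62, 24.3 and 3.02 in Ccr2KO and 13.1, 29.3 and 5.95 in WT cells, and Blk and Pax5 were not above background on every array. In the other lists fewer markers passed as lower at day 40, though summed levels also fell. Of 7 plasma cell markers 1 was lower at day 40, with a summed level of 84.4, 96.3 and 86.2 in Ccr2KO and 71.9, 123.1 and 89.9 in WT cells. For NK and innate lymphoid cells it was 1 of 7, for macrophages and monocytes 1 of 8 and for neutrophils 5 of 10. Summed levels at days 28 and 40 for NK and innate lymphoid cells were 27.5 and 9.82 in Ccr2KO and 28.2 and 11.4 in WT cells. For neutrophils they were 499.6 and 188 in Ccr2KO and 401.9 and 170.6 in WT cells. For macrophages and monocytes they were 128.1 and 85.5 in Ccr2KO and 165.9 and 93.8 in WT cells. The part of these cell types in these members' values was not tested.

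**Figure D3:**
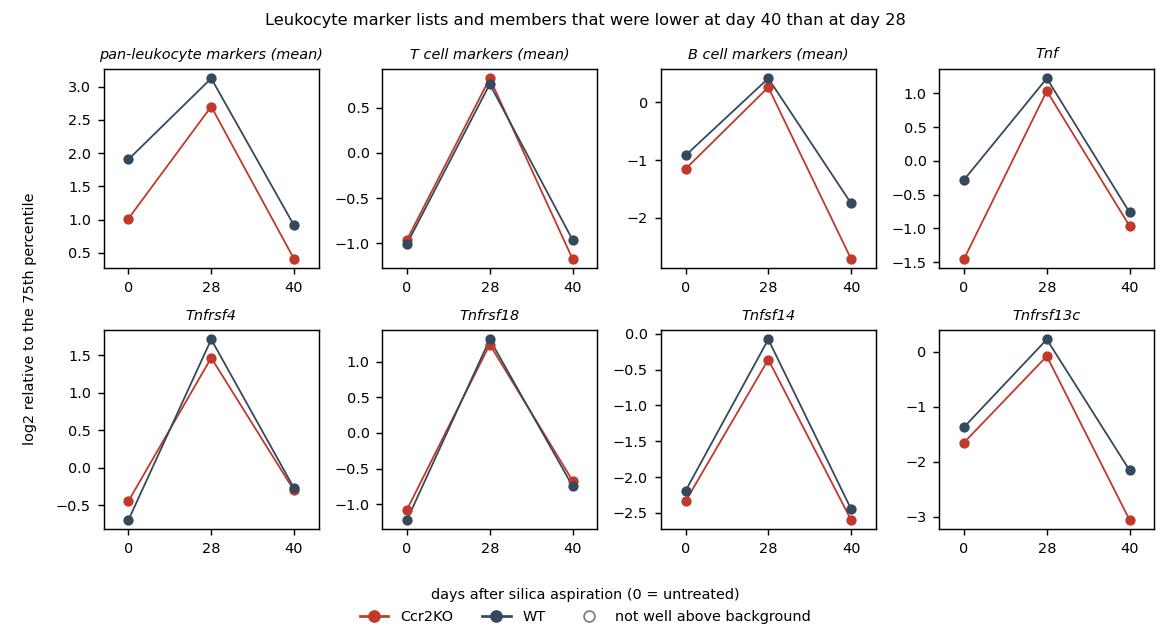
Mean log2 level of 12 pan-leukocyte, 11 T cell and 9 B cell markers and log2 levels of 5 members against days after silica in Ccr2KO (red) and WT cells (dark), 1 array per point and each panel on its own scale. All 8 panels peak at day 28. At day 40 Tnfrsf13c, Tnfsf14 and the means of the B cell and pan-leukocyte markers lie below untreated in both genotypes.

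On the day 40 arrays 6 members were above untreated and 2 below. The pan-leukocyte level was lowest at that time, and its part in these values was not tested. The 6 were Tnfsf18 (5.10 ± 0.27), Tnfsf8 (3.93 ± 0.59), Tnfsf11 (2.97 ± 0.50), Tnfrsf23 (1.94 ± 0.18), Tnfrsf11b (1.66 ± 0.16) and Tnfrsf11a (0.73 ± 0.13), at limma adjusted p between 0.0105 and 0.0354. Over all genes 8.5% were higher and 6.71% lower in that comparison. At day 28, 14 members were higher than untreated and 1 lower, against 9.17% and 8% of all genes. Of the members called, 7 were shared in direction, 46.7% of those at day 28 and 87.5% of those at day 40. Both comparisons use the same untreated arrays. Tnfsf18 was counted in both, though it passed the filter through its silica arrays alone and so had to differ.

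The remaining members had values close to untreated or did not pass. The 4-1BB ligand gene Tnfsf9 was lower on all silica arrays (−0.51 ± 0.18, limma adjusted p = 0.128). The TL1A gene Tnfsf15 gave −0.06 ± 0.21 and the gene of its receptor DR3, Tnfrsf25, gave 0.88 ± 0.31 (adjusted p = 0.124). At day 40 Tnfrsf25 read 0.04 in Ccr2KO against 1.12 in WT cells. Tnfrsf14, the HVEM gene, gave −0.15 ± 0.11. Over all 29 members, 14 had every silica array above both untreated arrays and 3 every silica array below them, where 21.1% and 24% of all genes did so.

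Tnfrsf9, the gene of the costimulatory receptor 4-1BB, depended on the probe. Its brighter probe read 2.73, 2.66 and 2.58 in Ccr2KO and 2.40, 2.43 and 2.42 in WT cells and gave −0.04 ± 0.10 after silica (limma adjusted p = 0.777). Its dimmer probe, assigned to the same accession, read −4.91, −1.21 and −1.26 in Ccr2KO and −5.47, −1.23 and −1.20 in WT cells, a difference of 3.97, and in WT cells at least 19.1-fold. The brighter probe was level and the dimmer one was higher on all 4 silica arrays, so the direction for the gene is uncertain. With the mean of its probes Tnfrsf9 gave 1.96 (adjusted p = 0.00794).

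**Figure D4:**
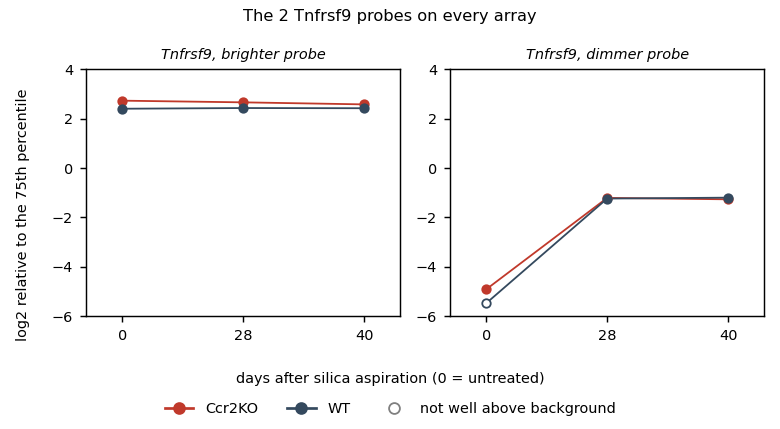
Log2 levels of the 2 Tnfrsf9 probes against days after silica in Ccr2KO (red) and WT cells (dark), 1 array per point. The brighter probe stays between 2.40 and 2.73, the dimmer one lies near −1.2 on the silica arrays and at −4.91 and −5.47 on the untreated arrays, where the open point was not well above background.

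Superfamily genes that carry other symbols gave 4 of 12 measured genes up, 1 down and 7 not passing. The lymphotoxin genes Lta (1.92 ± 0.11, limma adjusted p = 0.00761) and Ltb (1.04 ± 0.15, adjusted p = 0.0215), the neurotrophin receptor gene Ngfr (1.56 ± 0.15) and Relt (0.62 ± 0.10) rose. Lta, Ltb and Relt were also lower at day 40 than at day 28, by log2 differences of −1.62, −2.52 and −1.46, while Ngfr was not (0.02 ± 0.17). The genes of the lymphotoxin β receptor, Ltbr (0.34 ± 0.10, adjusted p = 0.0841), of the death receptor Fas (−0.11 ± 0.10) and of the costimulatory receptor Cd40 (−0.62 ± 0.19, adjusted p = 0.0973) did not pass. The 4 measured genes of lymphoid stroma that act after lymphotoxin signalling all rose. Among them were the B cell chemokine gene Cxcl13 (3.79 ± 0.24) and the vascular addressin gene Madcam1 (1.54 ± 0.10). None of the 4 passed between the times, though Cxcl13 read lower at day 40 in both genotypes (−0.35 ± 0.27, limma adjusted p = 0.577). The largest rise, at least 62.7-fold, was in Glycam1, which was not well above background on either untreated array. Glycam1 passed the filter through its silica arrays alone, so it had to differ.

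Downstream of the receptors, 5 of 23 adaptor, kinase and protease genes rose and 18 did not pass (median 0.07). The largest rises were in the necroptosis kinase gene Ripk3 (1.14 ± 0.13, limma adjusted p = 0.0137), the initiator caspase gene Casp8 (0.68 ± 0.12), and Traf3 (0.55 ± 0.11) and Traf4 (0.55 ± 0.11), adaptor genes. Of 15 NF-κB subunit and inhibitor genes, 4 rose and 11 did not pass (median 0.26). Among these 4 were both genes of the non-canonical dimer, Nfkb2 (0.90 ± 0.12, adjusted p = 0.018) and Relb (0.87 ± 0.13, adjusted p = 0.0236), with the inhibitor genes Nfkbie (1.27 ± 0.14) and Tnip1 (0.87 ± 0.12). Rela (−0.15 ± 0.14) and Nfkb1 (0.07 ± 0.11) did not pass. None of the 38 genes of these 2 lists passed between the times in either direction (medians −0.02 and −0.01). Several read lower at day 40 in both genotypes without passing. Among these were Rel (−1.27 ± 0.33, limma adjusted p = 0.195) and Traf1 (−0.51 ± 0.11, adjusted p = 0.149). Of 15 measured genes known as TNF or NF-κB targets, 6 rose, including Lcn2 (2.90 ± 0.29), the chemokine genes Ccl2 (2.298 ± 0.23) and Cxcl2 (1.72 ± 0.14), and E-selectin, Sele (2.11 ± 0.35), and 9 did not pass.

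Between the genotypes (Ccr2KO minus WT over the 3 days), 0 of 29 members and 0 of 16440 genes passed (0% of all genes). At an unadjusted p below 0.05 limma gave 4 members, Tnfsf18 (1.14 ± 0.22), Tnfrsf17 (−0.88 ± 0.23), Tnfrsf13c (−0.50 ± 0.16) and Tnfrsf14 (0.29 ± 0.11), and 1526 genes. Lower in Ccr2KO on all 3 days were 5 members, Tnf, Tnfsf14, Tnfrsf13b, Tnfrsf13c and Tnfrsf17, against 13.3% of all genes. Higher on all 3 days were 4, Tnfsf18, Tnfsf8, Tnfrsf9 and Tnfrsf14, against 19.6%. The shares of members were 17.2% and 13.8%. These directions are those of the brightest probes. The dimmer Tnfrsf13c probe read higher in Ccr2KO on each day, and the dimmer Tnfrsf13b probe read lower on each day. The dimmer Tnfrsf9 probe read lower in Ccr2KO at day 40 (−1.26 against −1.20). A second Tnfrsf14 probe read lower in Ccr2KO at day 28 (−4.038 against −4.031). Neither array was well above background for Tnfrsf17 at day 40 or for Tnfsf18 untreated, so those directions are uncertain. The summed pan-leukocyte level was also lower in Ccr2KO on each day, and its part in the members' directions was not tested.

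Day by day, differences of at least 2-fold were few. On the untreated arrays Tnfsf8 (at least 5.77-fold), Tnfsf11 (at least 3.33-fold) and Tnfsf13b (1.02 on the log2 scale) were higher in Ccr2KO, against 2.17% of all genes. The first pair are bounds because the WT array was not well above background for them. On the same arrays Tnf (−1.17) was lower, against 2.81%. The summed pan-leukocyte level was also lower there (53.0 in Ccr2KO against 97.5 in WT cells), and its part in these values was not tested. At day 28 Tnfsf18 (1.34) was higher, against 1.24% of all genes, and Tnfrsf17 (−1.16) lower, against 1.19%. At day 40 Tnfsf18 (1.53), Tnfsf8 (1.15) and Tnfrsf26 (1.14) were higher, against 3.31% of all genes, and Tnfrsf25 (−1.07) lower, against 1.59%. Tnfrsf17 also read lower at day 40, but neither array was well above background, so no difference is given. Of these, Tnfsf18 was the member 2-fold higher at both silica times. Each value sets 1 array against 1 array and has no replicate check.

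The difference of the silica responses (Ccr2KO minus WT) also passed for 0 members and 0 genes in limma (0% of all genes), with an unadjusted p below 0.05 for 618 genes and for 2 members. These were Tnfsf8 (−1.87 ± 0.59) and Tnfsf13b (−1.17 ± 0.29), the value for Tnfsf8 resting on a WT untreated reading not well above background. In both the untreated arrays differed most, Tnfsf8 reading −3.74 in Ccr2KO against −6.27 in WT cells and Tnfsf13b 2.73 against 1.71. Several target genes showed the same on the untreated arrays, including Il6 (6.46 in Ccr2KO against 4.28 in WT cells) and Cxcl10 (5.44 against 2.47), while at day 28 they read 4.16 against 5.05 and 4.40 against 4.40. These targets were picked after their values were seen, and with 1 untreated array per genotype an array and a genotype cannot be told apart.

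The called differences rested on few arrays. With the row of the slide as a block, which held Ccr2KO untreated, Ccr2KO day 28 and WT untreated in row 1, 0 members passed after silica and 0 between the times, with 1 residual degree of freedom, and 0 of all genes. All 14 called members kept their sign in that fit. Examples were Tnfsf8 at 2.49 ± 0.67 and Tnfsf11 at 2.25 ± 0.63, and the fall of Tnfsf10 was −0.30 ± 0.17. The sign of Tnfsf18 (4.87 ± 0.49) is no independent support, given how it passed the filter. The 14 members also kept their sign within row 1. There Ccr2KO day 28 minus untreated was 4.57 for Tnfsf18, 2.37 for Tnfsf8, 2.53 for Tnfsf11 and −0.47 for Tnfsf10. The same arrays are part of the fitted silica difference. Row 2 held no untreated array. Without either day 28 array 0 members passed after silica, and without the Ccr2KO day 40 array 9 did. Between the times 0 passed without any 1 of the 4 silica arrays.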

How the data were processed

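RNA from 6 preparations of CD45-negative mouse lung cells was read on 6 one-colour Agilent arrays of 1 slide, 1 array per group. Per the file headers, intensity values were extracted with Agilent Feature Extraction 11.0.1.1 (protocol GE1_1100_Jul11), which subtracts background and flags outlier, saturated and dim spots. The submitters' processing notes also name R 2.15.1. The deposited series values differed from the log2 processed signal, averaged over a probe's spots and with no percentile subtracted, by at most 5e-09 on any array.

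Control and outlier spots were left out, spots of a probe were averaged, and log2 processed signal minus the array's 75th percentile was used, in R 4.3.3 with the data.table package, version 1.17.8. Symbols came from probe accessions matched to RefSeq (GRCm38.p6). Genes were kept where their brightest probe was flagged well above background by 2 or more of the 6 arrays. limma 3.58.1 fitted day and genotype to 16440 genes with empirical Bayes moderation, and a second fit the interaction of silica and genotype. Benjamini-Hochberg adjustment ran over all genes at 0.05, after a test on simulated data. With 1 array per group the p-values measure only what the model left unexplained, which may be technical, and the number of arrays limits precision. "At least" folds set the bright group's mean against, per dim array, the higher of its own value and the lowest signal called well above background, a nominal bound. At 75th percentile signals of 793 to 1179, 58.2% to 64.4% of probes were well above background and none was saturated.

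All 29 members are named, and other genes come from lists of pathway partners and cell markers, named by the size of their change or as pathway partners. Members and lists were chosen with earlier results of these data known. Alternatives covered quantile normalization, normexp on median foreground and background signals (the files hold no mean signal column), the deposited series values, filters, probe means, trended robust variances, silica as yes or no, the slide row as a block and each array left out. Tnfsf13 had no matched probe and was not analysed here.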

Additional observations from a re-analysis of the deposited data

Results flagged for a closer look

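The second Tnfrsf9 probe was not used in the comparisons because the other probe of the gene is brighter. It was higher on all 4 silica arrays than on both untreated arrays, by 3.97 on the log2 scale, and was well above background on 5 of 6 arrays. Tnfsf4, the OX40 ligand gene, was below the filter, being well above background on 1 array (Ccr2KO, day 28). It read −7.65, −4.56 and −5.45 in Ccr2KO cells (untreated, day 28, day 40) and −7.57, −5.54 and −6.43 in WT cells, 2.11 higher on average after silica, a difference between readings of which 5 of 6 were not well above background, and it was not tested.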

How the results depend on the processing

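All 14 called members kept their direction in every alternative of scaling, filter, probe rule or model that measured them, and with each array left out. For Tnfsf18 this is no independent support, given how it passed the filter. The count of 14 after silica was 13 with quantile normalization, 17 with normexp, 14 of 25 with the deposited series values, 15 with probe means, 10 of 31 without the filter, 14 of 25 above background on all 6 arrays and 17 with trended robust variances. It was 9 with silica as yes or no, and 0 in the fit blocked on slide row, where the 5 calls between the times were also 0. Leaving out each array in turn gave 0 to 13 calls after silica, 0 without either day 28 array and 9 without the Ccr2KO day 40 array, and 0 to 6 between the times, 0 without any 1 of the 4 silica arrays. These fits have 1 residual degree of freedom. Over all genes the 3249 silica calls became 1877 without the filter, 2032 with silica as yes or no, 0 with the slide row and 0 to 1964 with each array left out, and the 448 between the times became 233 without the filter, 701 with normexp, 674 with trended robust variances, 685 without either untreated array and 0 with the slide row or without any 1 silica array.

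Among members that did not pass, directions turned for Tnfrsf17 with normexp (0.20), Tnfrsf9 with probe means (1.96), and Tnfrsf12a (−0.40) and Tnfsf13b (−0.33) with the slide row. Leaving out each array gave ranges of −0.40 to 0.63 for Tnfrsf12a, −0.55 to 0.36 for Tnfrsf17, −0.11 to 0.024 for Tnfrsf9, −0.24 to 0.93 for Tnfsf13b and −0.39 to 0.28 for Tnfsf15. Further alternatives were chosen after seeing the data. Day 28 minus untreated, or leaving out both day 40 arrays, gave −0.13 for Tnfrsf12a and 1.01 for Tnfrsf17. Day 40 minus untreated gave 8 calls, and leaving out both day 28 arrays gave 0. Both gave −0.14 for Tnfrsf13b, −1.10 for Tnfrsf13c, 0.011 for Tnfsf12, −0.26 for Tnfsf14 and 0.12 for Tnfsf15. The cause of these changes was not tested. No paired analysis was possible because each group has 1 array and the labels carry no replicate numbers. The interaction could not be fitted without either untreated array. Fitted differences of Tnfsf18, Tnfsf8, Tnfsf11 and Tnfrsf17 use readings not well above background, and the "at least" folds are nominal bounds.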
